A study of Mus musculus with 7 samples.

Results

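This account follows 9 genes of retinoic acid signalling and response: Stra6, Aldh1a1, Aldh1a2, Crabp1, Crabp2, Cyp26b1, Rara, Rarg and Stra8. They are 9 of the 18336 genes read by the arrays. A probe set, the group of oligonucleotides that reads 1 transcript on an Affymetrix array, was included when the annotation tied it to exactly 1 of these symbols. All such probe sets were kept. They numbered 10 of the 34945 single-gene probe sets in the table of the Sertoli and TM4 arrays, covering all 9 genes. In the testis table they numbered 9 of 10833 and covered 8 genes, with no probe set for Cyp26b1 used here.

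The series compared mouse RNA with and without ERM, the ETS transcription factor encoded by Etv5, and its title names germline stem cell loss as the subject. Whole testis came from wild-type and ERM knockout mice at 4 weeks. Primary Sertoli cells came from wild-type and ERM knockout mice at 4 weeks and from ERM knockout mice at 10 weeks. TM4, a cell line derived from mouse Sertoli cells, was measured without and with transfection of ERM. Each of these 7 groups was 1 array, so no difference has a replicate check and no p-value can be given. The sources used here do not give the knockout allele, the strain, the animals per preparation or the promoter that drove ERM. No wild-type Sertoli array at 10 weeks was analysed here, so on the 10-week array age and genotype cannot be told apart.

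Retinoic acid is made from vitamin A inside the testis and drives spermatogonia to differentiate and enter meiosis. Retinol enters cells through Stra6 and is oxidised first to retinal and then, by the Aldh1a enzymes, to retinoic acid. Crabp proteins carry the acid within the cell, Cyp26 enzymes break it down, and Rar and Rxr receptors bind DNA in pairs to switch on target genes such as Stra8. Stra8 is a germ cell protein that is needed for the start of meiosis.

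The regions upstream of the 3 members that differed at least 2-fold on an array labelled knockout are shown here. Their part in control was not tested. They are the 250 bases before a RefSeq transcript start on GRCm38.p6, on the gene's own strand, 5′ to 3′. Capitals mark AGGTCA, the half-site recognised by Rar and Rxr and by other nuclear receptors, searched on both strands. Stra8 lies at chr6:34920698-34920947 (+ strand), a window that falls inside the annotated gene because its record begins further upstream. Crabp1 lies at chr9:54764498-54764747 (+ strand) and Aldh1a2 at chr9:71215539-71215788 (+ strand), both outside their genes.
Stra8: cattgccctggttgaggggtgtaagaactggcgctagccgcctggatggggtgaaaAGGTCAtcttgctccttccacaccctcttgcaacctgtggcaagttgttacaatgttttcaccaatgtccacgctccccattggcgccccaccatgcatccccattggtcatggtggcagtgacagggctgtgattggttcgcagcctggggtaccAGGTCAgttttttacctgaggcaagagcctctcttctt
Crabp1: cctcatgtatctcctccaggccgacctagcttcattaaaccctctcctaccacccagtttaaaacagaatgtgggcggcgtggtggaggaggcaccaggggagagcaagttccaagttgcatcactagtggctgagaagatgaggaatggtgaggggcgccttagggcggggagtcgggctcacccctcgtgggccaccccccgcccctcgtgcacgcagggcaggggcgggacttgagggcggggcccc
Aldh1a2: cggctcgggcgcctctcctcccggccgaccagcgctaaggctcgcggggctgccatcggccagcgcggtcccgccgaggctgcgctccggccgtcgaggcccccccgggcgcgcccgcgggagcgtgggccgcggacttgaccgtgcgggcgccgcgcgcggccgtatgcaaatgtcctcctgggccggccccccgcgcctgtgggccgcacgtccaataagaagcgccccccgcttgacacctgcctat

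The Stra8 window held 2 matches, which began 194 and 38 bases before the start. Among all 32851 RefSeq windows of this length, 14% held at least 1 match and 1.36% held at least 2. The windows of Crabp1 and Aldh1a2 held none. RefSeq windows were found for 8 of the 9 members, 16 windows in all, with Crabp2 missing, and the other match lay on the opposite strand 225 bases before a start of Rarg. A match is a stretch of letters and not a shown binding site.

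Values are probe set intensities, brought to a trimmed mean of 500 on every array. Readings below 100 were treated as below the floor, and a ratio with 1 reading below it is a bound. Between 72.0% and 77.0% of probe sets reached the floor on the Sertoli and TM4 arrays, and 82.2% and 82.1% on the testis arrays. The deposited trimmed means were 183 and 186 in TM4 and 288 to 299 in Sertoli cells. Comparisons of TM4 with Sertoli cells therefore depend on the scaling, and testis levels cannot be set against the others because the array designs differ. The brightest of the 3 Etv5 probe sets read 710 in wild type, 910 on the 4-week and 995 on the 10-week array labelled knockout, so it does not bear out the labels. Whether it lies in the deleted part is not known. Sertoli markers reached the floor in 13 of 13 on every Sertoli array and in 11 of 13 on each TM4 array. Below it lay Sox9 and Wt1 in untransfected TM4 and Wt1 and Fshr in transfected TM4. Against wild-type Sertoli cells 10 of the 13 were at least 2-fold lower in untransfected TM4, while Amh and Inhbb were higher. Of all genes 17.8% were lower and 16.1% higher by that measure.

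**Figure D1:**
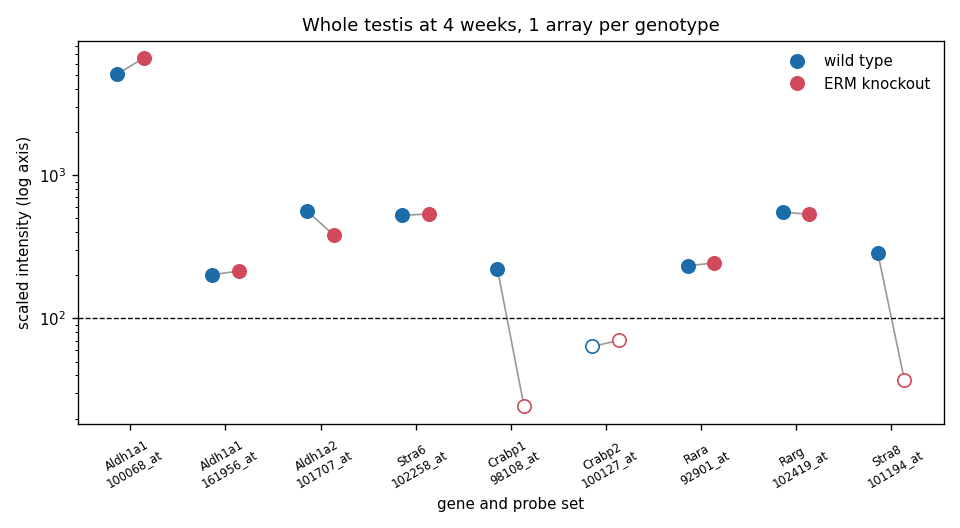
Scaled intensity (log axis) of the 9 member probe sets on the wild-type (blue) and ERM knockout (red) testis arrays at 4 weeks, 1 array each; the dashed line is the floor of 100 and open circles lie below it. Stra8 and Crabp1 go from above the floor to below it, and the other probe sets differ by less than 2-fold.

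In whole testis at 4 weeks, Stra8 and Crabp1 were lower on the array labelled knockout and no member was at least 2-fold higher. Stra8 read 286 in wild type and 37.1 in knockout, at least 2.86-fold lower. Crabp1, which binds retinoic acid and is found in spermatogonia, read 222 and 24.4, at least 2.22-fold lower. Of the 8 genes with a probe set, 7 reached the floor, and their median log2 ratio was -0.05 against -0.01 over all genes. Over all 7515 genes tested the shares past 2-fold were 0.852% on the lower side and 0.532% on the higher side. In a whole organ fewer cells of a type and less RNA per cell cannot be told apart.

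Both testis differences rest on low wild-type readings. With the floor raised to 0.4 of the trimmed mean the bounds shrank to log2 ratios of -0.51 for Stra8 and -0.15 for Crabp1, and neither gene stayed past 2-fold. In both genes the knockout reading is below the floor, so the size of the ratio is set by the floor. With the floor at 0.1 the ratios were -2.51 and -2.15.

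Stra8 also read lower in the Sertoli preparations labelled knockout. Its probe set gave 867 in wild type at 4 weeks, 259 in knockout at 4 weeks and 181 in knockout at 10 weeks. The wild-type reading stood apart from all others, since TM4 read 210 without and 236 with ERM. The knockout reading was 3.34-fold lower than wild type at 4 weeks and 4.79-fold lower at 10 weeks. From 4 to 10 weeks the log2 ratio within knockout was -0.52, less than 2-fold. Both comparisons with wild type share the same wild-type array, so they are not separate evidence.

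**Figure D2:**
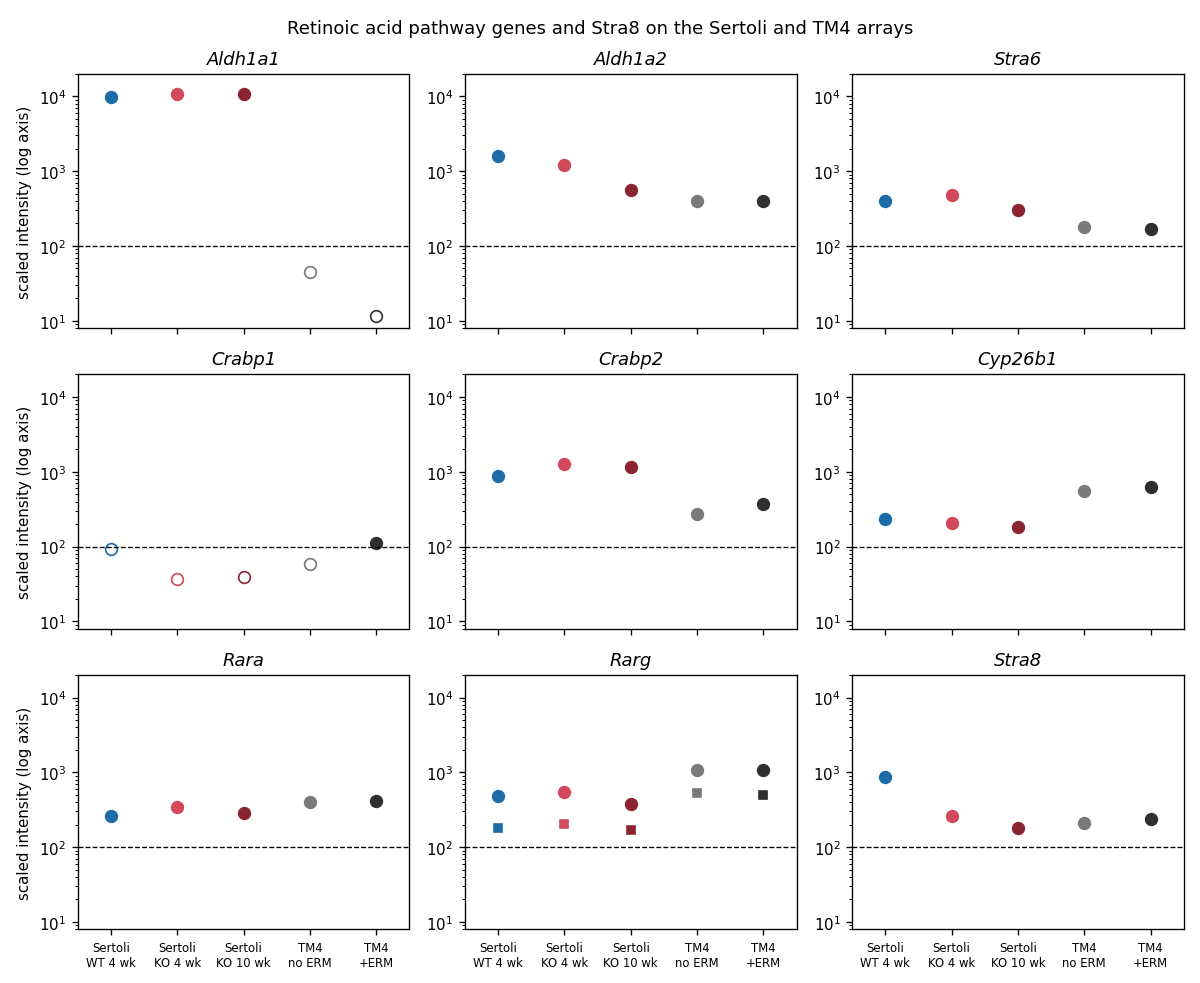
Scaled intensity (log axis) of each member on the 5 Sertoli and TM4 arrays, 1 array a group; circles are the brightest probe set of a gene, squares the second Rarg probe set, open symbols lie below the floor of 100 (dashed line). Aldh1a1 is bright on the 3 Sertoli arrays (9886 to 10695) and below the floor in TM4, and Stra8 is highest in wild-type Sertoli cells (867).

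Sertoli cells do not express Stra8 in textbook accounts, and germ cell transcripts were measured alongside it. The 12 spermatocyte markers all reached the floor in the wild-type and in the 4-week knockout preparation, with summed intensities of 22293 and 14825. In the 10-week knockout 8 of 12 reached the floor, with a sum of 2822, and Sycp1, Rec8, Tex15 and Stag3 lay below it. On the TM4 arrays the sums were 1909 and 1885. Markers of differentiating spermatogonia summed to 4832, 4299 and 3566 in the same order of Sertoli arrays, with Esx1 and Dmrtb1 below the floor at 10 weeks. In TM4 these markers summed to 6102 and 5743, above every Sertoli array. Ccnd2 of this list was at least 2-fold higher in untransfected TM4 than in wild-type Sertoli cells. This sum is therefore not specific to germ cells. In testis the spermatocyte sums were 15499 in wild type and 15495 in knockout, over 7 markers with a probe set, of which Sycp3 was below the floor on both arrays and Dmc1 in knockout. These near-equal sums rest on a few bright markers, since 5 of the 6 spermatocyte markers with a ratio in testis lay below 0, with a median log2 ratio of -0.30 and a lowest of -0.87. The corresponding spermatogonial sums were 5949 and 5377. Not all germ cell lists read lower with Stra8. Spermatid markers summed to 12149, 16937 and 5157 on the Sertoli arrays in the same order. Markers of undifferentiated spermatogonia summed to 6894, 8509 and 5537. For knockout against wild type at 4 weeks their median log2 ratios were 0.34 and -0.12. In testis the spermatid sums were 60980 in wild type and 68924 in knockout, and the undifferentiated ones 3486 and 3545. The part of germ cell content in the Stra8 difference was not tested.

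Genes of spermatogonia and early meiosis were followed beside Stra8 as a list of 14, chosen with earlier results of these data known. All except Dazl, Meioc and Ythdc2 also belong to the spermatocyte or differentiating spermatogonia markers above, so their readings are not separate results. In testis 7 of the 8 with a probe set reached the floor, all 7 with ratios below 0 and a median of -0.57. Dazl, an RNA-binding protein that germ cells need to respond to retinoic acid, was the 1 member past 2-fold, at 402 in knockout and 1364 in wild type. Of all genes 0.852% were at least 2-fold lower in testis. In Sertoli cells at 4 weeks 13 of the 14 lay below 0, with a median of -0.40 against -0.02 over all genes. At least 2-fold lower there were Dmrt1, a regulator of the choice between mitosis and meiosis, at 183 against 395, and the germ cell homeobox gene Esx1, at 171 against 600. They are 2 of the 14, beside 3.18% of all genes lower and 0.681% higher there. Stra8 itself, with a log2 ratio of -1.74, lay near Esx1 at -1.81.

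At 10 weeks more genes of this list were low. Against wild type at 4 weeks, 8 of 14 were past 2-fold on the lower side and 0 on the higher, beside 4.22% and 1.62% of all genes, with a median of -1.13 against -0.03 over all genes. Sycp3, of the axis of meiotic chromosomes, read 4176 in wild type, 2708 in knockout at 4 weeks and 431 at 10 weeks. Dazl read 2843, 1959 and 255 on the same arrays. Meioc, needed to hold the meiotic programme, read 854, 547 and 38.0. Sycp1, Stag3, Esx1, Spo11 and Ythdc2 were the others. Dazl, Sycp3 and Meioc were within 2-fold of wild type in knockout at 4 weeks and far lower at 10 weeks, whereas the Stra8 reading was already low at 4 weeks.

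**Figure D3:**
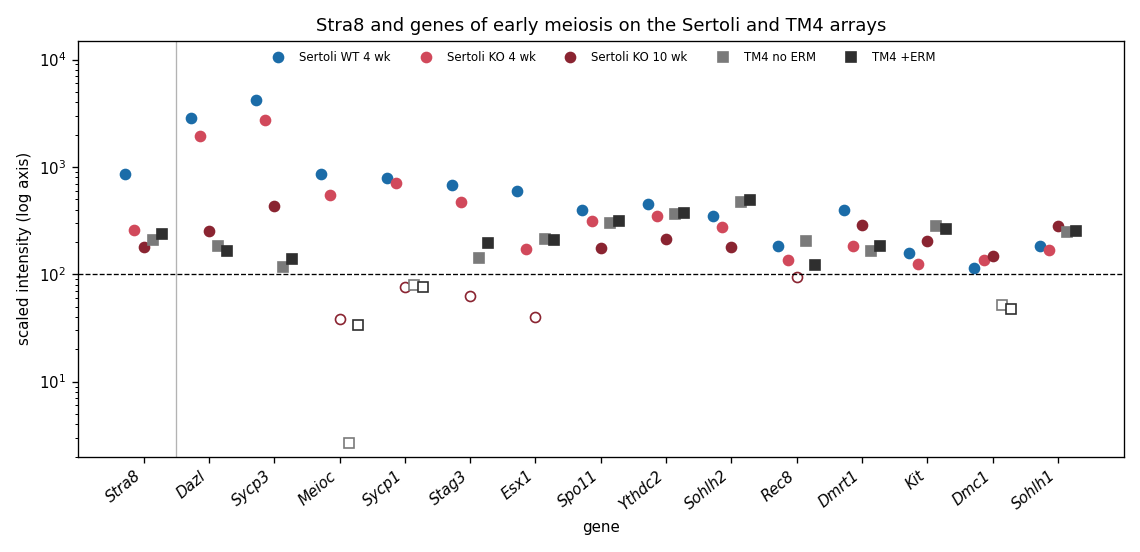
Scaled intensity (log axis) of Stra8 and of the 14 listed spermatogonial and meiotic genes on the 3 Sertoli arrays (circles) and 2 TM4 arrays (squares), 1 array a group, with open symbols below the floor of 100 (dashed line). Dazl, Sycp3, Meioc, Sycp1 and Stag3 are high in wild type and in the 4-week knockout and low in the 10-week knockout, while Stra8 and Esx1 are already low in the 4-week knockout.

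Between the knockout ages 5 of the 14 were at least 2-fold lower at 10 weeks, namely Dazl, Meioc, Sycp3, Stag3 and Sycp1, beside 3.51% of all genes, with a median of -0.74. Kit, the receptor of differentiating spermatogonia, was not among them, at 125 and 203 at 4 and 10 weeks. Sohlh1, a spermatogonial transcription factor, also read higher at 10 weeks, at 170 and 279. In TM4 none of the 11 list members that reached the floor differed at least 2-fold with ERM. Of all genes 0.303% were higher and 0.421% lower by that measure.

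Other genes with a course like that of Stra8 over the 5 arrays were ranked by the root mean square difference between log2 values, each centred on its mean over the arrays. Of 9870 genes compared the nearest was Nlrp14, a germ cell gene of the NLR family, at 0.28 log2 units. It read 646 in wild type, 295 in the 4-week and 131 in the 10-week knockout. Esx1 (0.31), the macrophage and melanocyte glycoprotein Gpnmb (0.32), the growth factor Csf3 (0.34) and Gramd1c (0.34) followed. Gpnmb read 548, 187 and 182 on the Sertoli arrays. Macrophage markers reached the floor in 10 of 10 on all 3 Sertoli arrays, with sums of 12585, 5049 and 8766. Such likeness over 5 arrays is a description only.

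In Sertoli cells at 4 weeks 3.18% of all genes tested were past 2-fold on the lower side and 0.681% on the higher. Stra8 was the 1 member of 8 at or above the floor past 2-fold, and the median of the 8 was 0.14. In the comparison of the 10-week knockout with wild type the background was 4.22% lower and 1.62% higher, and 2 of 8 members were lower, Stra8 and Aldh1a2. Between the knockout ages, with 3.51% lower and 4.19% higher in the background, Aldh1a2 was the 1 member of 8 past 2-fold. There 7 of the 8 ratios lay below 0, with a median of -0.38 against -0.03 over all genes.

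**Figure D4:**
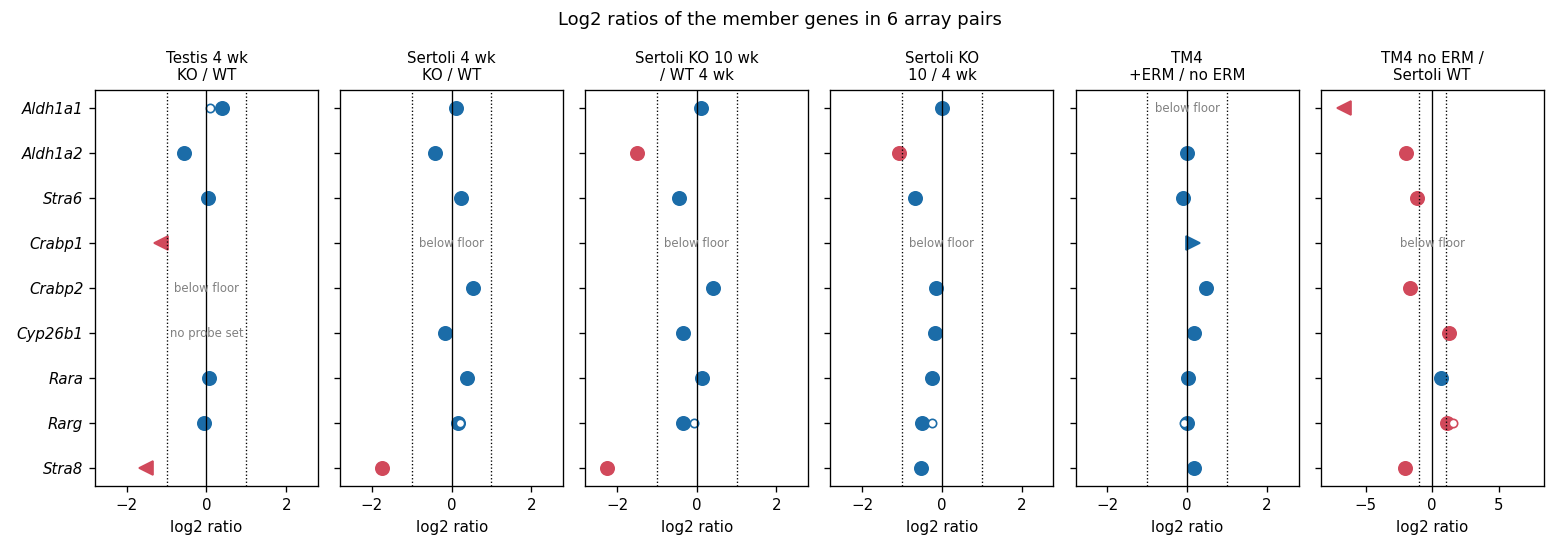
Log2 ratio of each member in 6 pairs of arrays, 1 array a side; large symbols are the brightest probe set of a gene, small open ones further probe sets, triangles bounds with 1 reading below the floor, red a difference of at least 2-fold (dotted lines), and the panel of TM4 against Sertoli cells has a wider axis. Stra8 is at -1.74 in Sertoli cells at 4 weeks and Aldh1a2 at -1.51 in the 10-week knockout against wild type, while the TM4 pair with and without ERM has no red symbol.

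The 2 retinal dehydrogenases behaved differently. Aldh1a1, the form found in Sertoli cells, read 9886 in wild type, 10649 in knockout at 4 weeks and 10695 at 10 weeks. These 3 readings lay within 1.08-fold of each other. In TM4 it read 44.2 and 11.5, below the floor on both arrays, so untransfected TM4 was at least 98.9-fold lower than wild-type Sertoli cells. In testis the bright Aldh1a1 probe set read 5053 in wild type and 6574 in knockout. Its dim probe set read 202 and 214, with log2 ratios of 0.38 and 0.09 on the pair.

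Aldh1a2, the form reported mainly in spermatocytes, read lower on every array labelled knockout. It read 1598 in wild-type Sertoli cells, 1196 in knockout at 4 weeks and 563 at 10 weeks. The log2 ratio to wild type was -0.42 at 4 weeks, less than 2-fold, and -1.51 at 10 weeks. The 10-week reading was 2.13-fold lower than the 4-week knockout. TM4 read 399 and 398, below all 3 Sertoli arrays. In testis Aldh1a2 read 562 in wild type and 381 in knockout, a log2 ratio of -0.56. Its order over the Sertoli arrays is that of the summed markers both of spermatocytes and of differentiating spermatogonia given with Stra8. In testis the spermatocyte sums were near-equal, at 15499 in wild type and 15495 in knockout, though 5 of 6 ratios lay below 0. The part of germ cell content in the Aldh1a2 readings was not tested.

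Spread between probe sets of 1 gene gave the only yardstick of measurement error. Its robust standard deviation, in log2 units, was 0.19 in the testis pair, 0.17 in Sertoli cells at 4 weeks, 0.14 in the TM4 pair, 0.19 between knockout ages and 0.12 for the 10-week knockout against wild type. It was largest, at 0.35, for untransfected TM4 against wild-type Sertoli cells. It comes from bright genes on the same arrays and says nothing of the variation between animals.

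Among the binding proteins, Crabp2 was measured in Sertoli and TM4 cells and Crabp1 was near the floor there. Crabp2, which hands retinoic acid to its nuclear receptors, read 874 in wild type, 1270 in knockout at 4 weeks and 1156 at 10 weeks. Its log2 ratios to wild type were 0.54 and 0.40, both under 2-fold. In TM4 it read 269 without and 374 with ERM, a log2 ratio of 0.47. In testis it lay below the floor on both arrays, at 63.8 and 70.2. Crabp1 read 92.9, 36.4 and 38.8 on the Sertoli arrays, all below the floor, and 59.0 and 110.5 in TM4, so no difference could be given for Sertoli cells.

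Stra6, the membrane receptor that takes up retinol, read 404 in wild-type Sertoli cells, 475 in knockout at 4 weeks and 298 at 10 weeks. The largest of its ratios among the Sertoli arrays was -0.67, between the knockout ages. In testis it read 525 and 535, and in TM4 180 and 167. None of these pairs reached 2-fold.

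Cyp26b1, the enzyme that breaks down retinoic acid and keeps Stra8 silent in the fetal testis, read 233, 209 and 185 on the Sertoli arrays. All 3 values were within 2-fold, the lowest being the 10-week knockout with a log2 ratio of -0.34 to wild type. It read 551 without and 625 with ERM in TM4.

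The receptors differed little with genotype. Rara, the receptor through which Sertoli cells respond, read 260, 339 and 283 on the Sertoli arrays and 234 and 244 in wild-type and knockout testis. Rarg, the receptor of spermatogonia, read 481, 540 and 381 on its bright probe set and 179, 205 and 171 on the other. Its testis readings were 552 and 532. Among the Sertoli arrays the Rarg ratio farthest from 0 was -0.50, between the knockout ages, where the other probe set gave -0.26. Neither receptor gene was past 2-fold in any comparison of genotype, age or ERM transfection.

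Between the TM4 arrays labelled with and without ERM all 8 members at or above the floor lay within 2-fold, with a median of 0.09 and a largest ratio of 0.47 for Crabp2. Stra8 had a log2 ratio of 0.17. Over all 16158 genes tested 0.303% passed 2-fold on the higher side and 0.421% on the lower. The Etv5 probe sets gave ratios of 1.13 to 1.51 in fold between these arrays, all within 2-fold, so they do not show overexpression on the array labelled with ERM.

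TM4 and wild-type Sertoli cells differed in most members. In untransfected TM4 5 of 8 were at least 2-fold lower: Aldh1a1, Stra8 (4.12-fold), Aldh1a2 (4.01-fold), Crabp2 (3.24-fold) and Stra6 (2.24-fold). Cyp26b1 (2.36-fold) and Rarg (2.2-fold) were higher, and Rara had a log2 ratio of 0.63. Here 17.8% of all genes were at least 2-fold lower and 16.1% higher, 3011 and 2718 genes. Without scaling the split was 5771 lower and 1219 higher and the median of all genes moved from 0.08 to -0.60. On that scale Cyp26b1 was at 0.53 and Rarg at 0.43, still higher in TM4 but within 2-fold. Rara was at -0.07, so its excess in TM4 holds only after scaling. The 5 lower members stayed lower, but leaving out the scaling lowers the ratios of TM4 to Sertoli cells. This outcome was therefore fixed in advance.

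The rest of the retinoid pathway was described through 6 lists of 58 further genes. In testis 33 reached the floor and 1 was past 2-fold, on the lower side, beside 0.852% of all genes lower and 0.532% higher. The median was 0.01. The 1 gene was Rbp4, the carrier of retinol in blood, at 91.0 in knockout and 221 in wild type, at least 2.21-fold lower. Its ratio is a bound that the floor at 0.4 brings within 2-fold. Aldh1a7, a close relative of Aldh1a1, read 658 against 380, a log2 ratio of 0.79.

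In Sertoli cells at 4 weeks 43 of these genes reached the floor, and the median was 0.02. Past 2-fold was 1, on the lower side, beside 3.18% of all genes lower and 0.681% higher. The 1 gene was the nuclear receptor Nr2f2, at 82.1 against 220 on the probe set that represents it. Its other probe sets gave 0.33, 0.25 and -0.97, so 1 shared the direction and 2 went the other way. The retinol and retinal enzymes ranged from -0.96 for Rdh12 to 0.77 for Adh1, with a median of -0.08. Adh1, an alcohol dehydrogenase that can oxidise retinol, read 3509 against 2058. Among the remaining receptors Rxra, Rxrb and Rxrg had ratios from 0.11 to 0.39, and Rarb lay below the floor on both arrays.

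**Figure D5:**
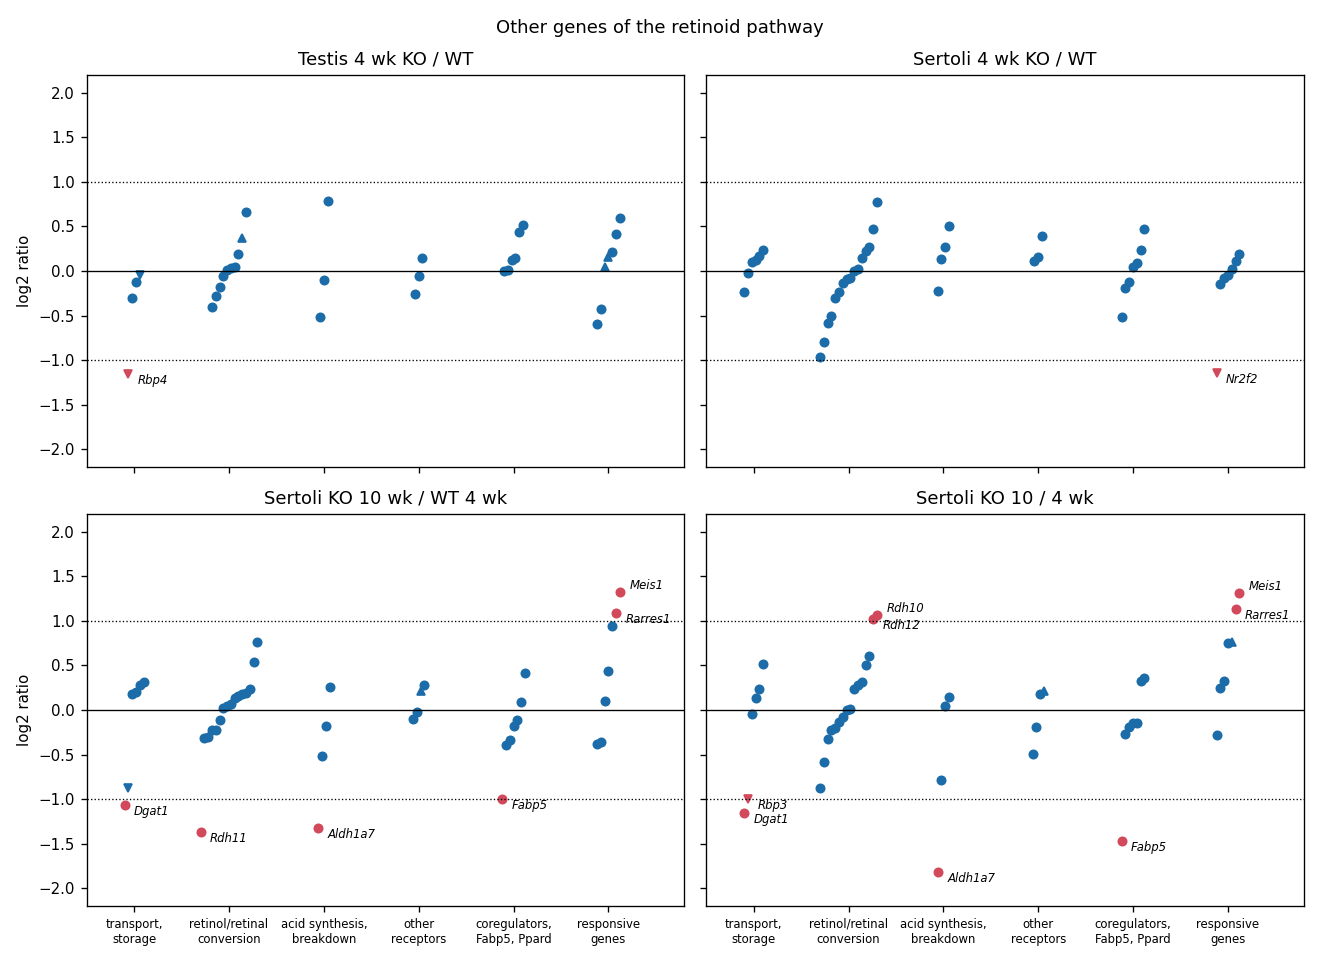
Log2 ratios of the further retinoid genes by role in 4 pairs of arrays, 1 array a side; each point is a gene at or above the floor, triangles are bounds, red points with names are at least 2-fold different (dotted lines). At 4 weeks 1 gene passes 2-fold in each tissue (Rbp4 in testis, Nr2f2 in Sertoli cells), and most named genes belong to the 10-week array.

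At 10 weeks more of these genes differed, as did more of all genes. Against the 4-week knockout 4 of 44 were past 2-fold on each side, beside 4.19% of all genes on the higher and 3.51% on the lower side, with a median of 0.03. Rdh10, the main enzyme that turns retinol into retinal, read 1462 at 4 and 3049 at 10 weeks, and wild type at 4 weeks read 1795. Rdh12, a retinal reductase, read 261 and 527, and wild type 508, so for this gene it was the 4-week knockout that was low. Rarres1, named for its response to retinoids, read 2533 and 5536, with 2606 in wild type. Meis1, a homeobox cofactor, read 271 and 670 on the brightest probe set, while its other probe sets gave ratios of -0.15 and 0.51.

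The lower genes were Aldh1a7, Fabp5, Dgat1 and Rbp3. Aldh1a7 read 1056 at 4 and 298 at 10 weeks, 3.54-fold lower, with 745 in wild type. Fabp5, which carries retinoic acid to the receptor Ppard, read 9607 and 3465, with 6936 in wild type. Dgat1, which can esterify retinol, read 431 and 193, with 402 in wild type, but its other probe set gave log2 ratios of -0.18 between the ages and -0.01 to wild type. Rbp3 read 200 at 4 weeks and 19.3 at 10 weeks, at least 2.0-fold lower, while its other probe set read 167 and 135, a ratio of -0.30.

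Against wild type at 4 weeks the 10-week knockout had 2 of 44 higher past 2-fold, Rarres1 and Meis1, and 4 lower, Aldh1a7, Fabp5, Dgat1 and Rdh11. Over all genes 1.62% were higher and 4.22% lower by that measure. The shares in the list were above these, on counts of only 2 and 4 genes. The median was 0.06. Rdh11, a retinal reductase, read 1088 in wild type, 771 in the 4-week and 422 in the 10-week knockout. For Meis1 the other probe sets gave -0.23 and -0.13 in this comparison, opposite to the bright one. Tgm2, a classic retinoic acid target, read 3602, 4108 and 6907 in the same order, a log2 ratio of 0.94 to wild type.

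In TM4 with ERM none of 43 further genes was past 2-fold, beside 0.303% of all genes higher and 0.421% lower. The median was 0.00, counting each gene by the probe set that represents it. The largest ratio was a bound of 0.87 for Aldh8a1, which read 183 with and 63.0 without ERM, but its other probe set read 146 with and 239 without, a ratio of -0.71. A second probe set of Aldh1a3 read 251 with and 97.8 without ERM, at least 2.51-fold higher, while the one that represents the gene gave 0.19. Between untransfected TM4 and wild-type Sertoli cells 13 of 47 were past 2-fold on the lower side and 7 on the higher, beside 17.8% and 16.1% of all genes, so the count on the higher side is near the background. Lower in TM4 by the probe set that represents the gene were the retinol and retinal enzymes Rdh1, Rdh9, Rdh10, Rdh14, Adh1, Adh4 and Dhrs3. So were Aldh1a7, the coactivators Ncoa1, Ncoa2 and Ncoa3, Rarres1 and Tgm2. For Rdh14 (0.24), Ncoa2 (0.16) and Ncoa3 (0.72) 1 other probe set each went the other way. For Ncoa3 it was the only other one at or above the floor. On the higher side by the probe set that represents the gene were Rbp3, Bco1, Nr2f2, Meis2, Ripk4, Aldh1a3 and Nrip1. The other probe sets of Aldh1a3 and Nrip1 at or above the floor all had ratios below 0, so no direction holds for these genes, and 1 other probe set each of Nr2f2 (-1.39) and Ripk4 (-0.44) also went the other way. Without scaling these counts were 21 lower and 3 higher. Rarres1 read 81.4 in TM4 and 2606 in Sertoli cells, Tgm2 283 and 3602, and Dhrs3, a retinal reductase that retinoic acid induces, 53.1 and 553. Median log2 ratio was -1.0 for the 16 retinol and retinal enzymes that reached the floor, against 0.08 over all genes.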

How the data were processed

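RNA from 7 mouse samples was measured on 1-colour Affymetrix arrays, 1 array per group, with groups taken from the titles in the labels. The authors deposited linear probe set intensity values with a lowest value of 1, whose software and scaling the sources used here do not give. Within each table every array was multiplied to a trimmed mean of 500, taken over probe sets other than controls after leaving out the lowest 2% and the values above percentile 98. Values below 100 (0.2 of that mean) were set to this floor before log2 ratios were taken. A gene was represented by its probe set with the highest mean over the arrays of its table, and differences of at least 2-fold were counted. With 1 array per group no test was run, and the number of arrays limits precision. Gene symbols came from the platform annotation, and windows upstream of starts from RefSeq (GRCm38.p6), for names and sequences only. The named genes were the 9 members, Etv5, list genes past 2-fold or with the largest ratios, and the 5 genes most like Stra8. Further genes of the lists are named to follow Stra8. Members, lists and alternatives were chosen with earlier results of these data known. The calculation was tested on simulated data. It used Python 3.11.15, numpy 2.4.6, pandas 2.3.3 and matplotlib 3.10.9.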

Additional observations from a re-analysis of the deposited data

Results flagged for a closer look

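The knockout to wild-type ratio of 2 genes had opposite signs in testis and in Sertoli cells at 4 weeks. Rarg had a log2 ratio of -0.05 in testis and 0.17 in Sertoli cells, neither larger than the spread between probe sets (0.19 and 0.17). Nr2f2 had a log2 ratio of 0.60 in testis, on a probe set that read 135 in wild type and 205 in knockout, and of -1.14 in Sertoli cells, where 2 of its 3 other probe sets at or above the floor went the other way. The differences between tissues were not tested, since each genotype had 1 array per tissue and the array designs differ.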

How the results depend on the processing

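Member log2 ratios were recomputed under 7 alternatives, 315 values in all. Of these 299 moved by less than the spread between probe sets, 16 moved further and 0 called ratios changed sign. With a floor of 0.4 times the trimmed mean, 0 members in place of 2 were at least 2-fold lower in testis, because both readings in knockout lie below the floor and the bound shrinks with it. For untransfected TM4 against Sertoli cells the 2 higher members became 0 on the values as deposited, and 1 without probe sets prone to cross-hybridisation, which removes Rarg, Rara and Crabp1. Their suffix can also mark transcripts of 1 gene. The other member counts moved by at most 1.5 times. Of 672 list counts 616 stayed within 1.5 times. Of 404 ratios of named list genes 304 moved by less than the spread. Those that changed sign were Meis1 for the 10-week knockout against wild type (-0.13 without probe sets prone to cross-hybridisation), and, for TM4 against Sertoli cells, Aldh1a3 (-1.72 as the mean over probe sets, -3.36 without those prone to cross-hybridisation) and Nrip1 (-1.03 as the mean). Background counts for TM4 against Sertoli cells went from 2718 higher and 3011 lower to 1219 and 5771 on the values as deposited. The pairs with smaller counts moved with the floor: at 0.1 times the trimmed mean TM4 with ERM had 134 genes higher and 193 lower in place of 49 and 68, and testis 61 higher in place of 40. At 0.4 TM4 had 24 and 27, and testis 22 and 35 in place of 40 and 64. On the values as deposited TM4 with ERM had 44 lower. No paired analysis was possible because each group had 1 array. Readings near the floor, those of Stra8 and Crabp1 in testis first, limit the precision.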

Other observations

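Probe sets of 1 gene disagreed for several further retinoid genes between untransfected TM4 and wild-type Sertoli cells. Past 2-fold there were 27 list genes, of which 7 belong to the list of 14 followed beside Stra8. Of the 27, 14 had 1 probe set at or above the floor and 6 had all others in the same direction. At least 1 in the opposite direction was found for 7, all of them further retinoid genes. Aldh1a3, a retinal dehydrogenase, was at 1.10 on its brightest probe set and at -2.88 and -3.36 on the others. Nrip1, a corepressor of nuclear receptors, was at 1.44 on its brightest and between -0.29 and -2.48 on 4 others. Both are counted on the higher side above by their brightest probe set alone.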
